A study of Rattus norvegicus with 4 samples.

Results

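The genes described here write, recruit and read methylation on lysine 9 of histone H3 (H3K9). They are 10 of the 34773 genes in the deposited table and were chosen by name: *Setdb1*, *Ehmt1*, *Ehmt2*, *Suv39h1*, *Suv39h2*, *Trim28*, *Atf7ip*, *Cbx1*, *Cbx3* and *Cbx5*. The table holds 9 of them under these symbols, and *Suv39h1* was matched through its RefSeq synonym as *Suv39h1l1*. Poly(A) RNA was sequenced from rat embryonic stem cells (ESCs) in 4 libraries. WT was 1 library of DA-5-3 GFP, a rat ESC line with a *Rex1*-GFP reporter. *Thop1*-KO was 1 library of each of 3 subclones (#1, #2 and #3) made from this line. They were made by transfection of Cas9-puro vectors, selection with puromycin and picking of colonies. All 4 libraries thus carry the reporter, and each knockout library stands for 1 clone. By the study's methods, its rat ESCs grew on feeder cells in medium with PD0325901, CHIR99021 and LIF. The study describes DA-5-3 as diploid, whereas the design text deposited with the data calls the cells haploid.

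H3K9 methylation is a mark of silent chromatin. SETDB1 places it on retrotransposons and on many germline genes in ESCs, where TRIM28, bound to zinc finger proteins, brings the enzyme to its targets and ATF7IP stabilises it in the nucleus. EHMT2 (G9a) and EHMT1 (GLP) work as a pair and place mono- and dimethylation in euchromatin, and SUV39H1 and SUV39H2 place trimethylation at pericentromeric repeats. The HP1 proteins, encoded by *Cbx1* (HP1 beta), *Cbx3* (HP1 gamma) and *Cbx5* (HP1 alpha), bind the methylated lysine.

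*Setdb1*, *Ehmt1* and *Cbx1* were higher in *Thop1*-KO and *Cbx5* was lower, and the other 6 genes did not pass the test. The promoters of the 3 genes that rose are shown first, to let their sequences be read beside the values. Each runs from 250 bases before to 50 bases after a RefSeq start of the GRCr8 assembly, 5′ to 3′ on the strand of the gene. Capitals mark the GC box GGGCGG, bound by SP and KLF factors, and the ETS motif CCGGAAG, on either strand.
*Setdb1* promoter, chr2:185618933-185619232, minus strand: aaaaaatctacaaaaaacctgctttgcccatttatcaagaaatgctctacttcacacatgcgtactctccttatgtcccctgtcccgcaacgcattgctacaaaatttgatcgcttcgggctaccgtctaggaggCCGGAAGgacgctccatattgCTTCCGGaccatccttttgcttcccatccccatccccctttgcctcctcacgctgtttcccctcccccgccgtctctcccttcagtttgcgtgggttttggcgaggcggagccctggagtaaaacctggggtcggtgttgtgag
*Ehmt1* promoter, chr3:28127077-28127376, minus strand: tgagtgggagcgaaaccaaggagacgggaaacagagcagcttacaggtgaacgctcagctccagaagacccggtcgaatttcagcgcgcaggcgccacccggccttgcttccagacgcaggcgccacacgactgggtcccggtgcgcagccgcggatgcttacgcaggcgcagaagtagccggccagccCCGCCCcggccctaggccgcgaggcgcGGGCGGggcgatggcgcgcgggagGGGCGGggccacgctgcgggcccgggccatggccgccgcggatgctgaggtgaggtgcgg
*Cbx1* promoter, chr10:82266512-82266811, plus strand: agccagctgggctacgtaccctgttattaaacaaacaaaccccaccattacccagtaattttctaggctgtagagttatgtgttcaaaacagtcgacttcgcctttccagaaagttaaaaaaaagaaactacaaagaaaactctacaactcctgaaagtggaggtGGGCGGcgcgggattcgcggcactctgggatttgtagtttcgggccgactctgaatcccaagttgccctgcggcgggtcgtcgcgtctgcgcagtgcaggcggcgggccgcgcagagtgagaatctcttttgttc
The *Setdb1* window holds 2 ETS motifs and no GC box, the *Ehmt1* window holds 3 GC boxes, and the *Cbx1* window holds 1. RefSeq gives *Suv39h1* 2 windows and each other member 1, and a member was counted where any of its windows holds the motif. A GC box was found in 9 of the 10 members, *Setdb1* being the one without, and in 9 of their 11 windows, where 33.1% of all 33469 promoters of the same length hold it. The ETS motif was found in 1 member, *Setdb1*, and in 8.75% of all promoters. TCAAGGTCA, the motif of ESRRB, was in 0 members and 0.433% of all promoters, and the E-box CACGTG was in 1 member, *Ehmt2*, and 6.42% of all promoters. The members' windows hold between 10 and 41 CpG dinucleotides, where the median of all promoters is 7. All promoters include those of genes not expressed here, and no set matched for CpG or expression was compared. The share of GC boxes is thus not shown to be particular to these genes. The window of *Cbx5* lies inside the gene's RefSeq span. The motifs were chosen after the values were seen, and a match describes letters only. Matches do not overlap each other in the windows printed above, but GC boxes overlap in the *Suv39h2* window.

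The level of each gene was first set in FPKM, the deposited counts per length and library factor, which is the scale on which genes can be compared. In WT, *Trim28* was highest at 1564 FPKM, followed by *Cbx3* at 75.7, *Ehmt2* at 43.8, *Cbx1* at 40.6, *Cbx5* at 21.7, *Suv39h1* at 12.9, *Atf7ip* at 8.79, *Setdb1* at 7.49, *Suv39h2* at 4.17 and *Ehmt1* at 3.33. In *Thop1*-KO the order of the mean FPKM (± SD, n = 3) was *Trim28* at 1310 ± 32.3, *Cbx1* at 115 ± 8.23, *Ehmt2* at 78.1 ± 14.8, *Cbx3* at 39.1 ± 5.01, *Setdb1* at 19.8 ± 2.42, *Suv39h1* at 14.9 ± 1.00, *Ehmt1* at 11.5 ± 0.53, *Cbx5* at 8.54 ± 1.29, *Atf7ip* at 6.62 ± 0.36 and *Suv39h2* at 2.77 ± 0.66. No neighbours in the *Thop1*-KO order overlapped over the 3 subclones. In WT, *Ehmt2* and *Cbx1* lay close, and 1 library gives no spread to set them apart. The listed length of *Cbx1* is 558 bases, against 1746 for *Cbx3* and 1471 for *Cbx5*, so the FPKM of *Cbx1* is divided by a short length.

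Levels between libraries are given below in CPM, the counts scaled to a common library total, after TMM normalization. All 10 genes had enough counts to be tested. *Thop1*-KO was set against WT with the quasi-likelihood test of edgeR, p-values were adjusted by the method of Benjamini and Hochberg over the 15028 genes tested, and a gene was called at an adjusted p-value under 0.05. Of the 10 genes 4 were called, 3 higher and 1 lower, where the test called 13.8% of all genes tested, 8.62% higher and 5.17% lower. Before adjustment 6 of the 10 had a p-value under 0.05, as did 34.0% of all genes. DESeq2's Wald test called 5 of the 10, and 21.5% of the 13973 genes it gave an adjusted p-value, or 20.1% of 14713 at its default level of independent filtering, where the same 5 were called. WT lay outside the range of the 3 subclones for all 10 genes, below them for 5 and above them for 5. Over all genes tested it lay outside for 75.7%, below for 38.1% and above for 37.6%. The median log2 fold change was -0.02 over the 10 genes and 0.06 over all genes tested. Because WT is 1 library, the spread comes from the subclones alone. These were picked as separate colonies, and the study does not state whether they were grown in parallel with WT. The knockout steps of transfection, puromycin selection and picking of colonies are not described for WT. A difference of genotype, of these steps, or of the single WT culture or library cannot be told apart. With 1 library against 3, the smallest p-value of an exact one-sided permutation test is 0.25.

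**Figure D1:**
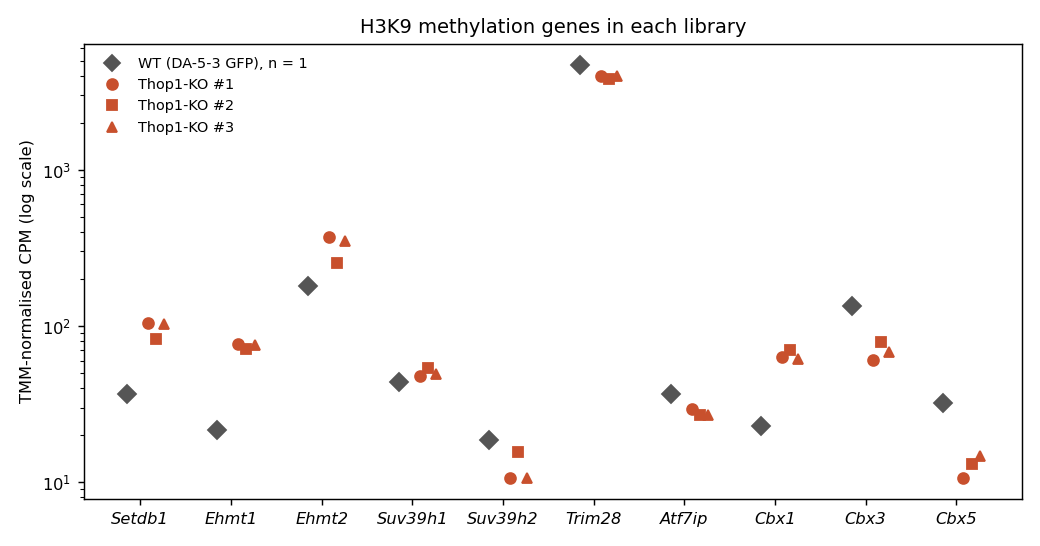
TMM-normalised CPM on a log axis of the 10 genes in WT (diamond) and in *Thop1*-KO #1 (circle), #2 (square) and #3 (triangle). WT lies below all 3 subclones for *Setdb1*, *Ehmt1*, *Ehmt2*, *Suv39h1* and *Cbx1* and above them for the other 5 genes.

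Among the enzymes, *Setdb1* (ENSRNOG00000021143, minus strand of chromosome 2, 196495867 to 196527127 in the deposited annotation) was at 36.6 CPM in WT and at 104, 83.1 and 103 in #1, #2 and #3. All 3 subclones lay above WT, with #2 the lowest of them. The log2 fold change was 1.40 (standard error 0.29, 95% interval 0.72 to 2.09, adjusted p = 0.0278, edgeR), a fold of 2.65. The study named *Setdb1* from these same libraries, so its call is not independent evidence.

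The 3′ end of *Setdb1* shares 1120 bases, 196495867 to 196496986 on chromosome 2, with *Cers2*, a ceramide synthase gene on the opposite strand. The library kit is not stated to keep the strand, so reads in this stretch cannot be told apart. *Cers2* had 557 counts in WT and 810, 649 and 634 in #1, #2 and #3, beside 544 counts of *Setdb1* in WT and 1749, 1470 and 1856 in the subclones. WT lay inside the range of the subclones for *Cers2* in CPM, and its log2 fold change was 0.10 ± 0.30 (SE, adjusted p = 0.845, edgeR). The counts of *Setdb1* per count of *Cers2* were 0.977 in WT and 2.16, 2.27 and 2.93 in the subclones. With the counts of both genes summed, the log2 fold change was 0.89 (standard error 0.27) and the call was lost (adjusted p = 0.0705, edgeR). *Cers2* gave 557 of the 1101 summed counts in WT and differed little. The sum thus lowers the fold change whether or not reads were assigned to the wrong gene, and cannot decide that question. One further locus of the table is described as SETDB1, on an unplaced scaffold, with 2 counts in WT and 2, 5 and 3 in the subclones.

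*Ehmt1* (ENSRNOG00000007242, minus strand of chromosome 3, 1960957 to 2123820) was at 21.6 CPM in WT and at 77.2, 70.8 and 75.2 in #1, #2 and #3. The 3 subclones lay close together and far above WT. Its log2 fold change of 1.78 (standard error 0.28, 95% interval 1.13 to 2.44, adjusted p = 0.0142, edgeR) was the highest of the 10 genes. This interval overlaps that of *Cbx1*, 0.84 to 2.17. When the libraries were corrected for gene length, *Ehmt1* was at 1.38, below *Cbx1* at 1.92. *Ehmt2*, whose product is the partner of GLP, was at 182 CPM in WT and at 369, 254 and 350 in the subclones. Its subclones also lay above WT but spread more widely, and the log2 fold change of 0.84 (standard error 0.29, 95% interval 0.14 to 1.53) did not pass (adjusted p = 0.0987, edgeR). Of the summed FPKM of both genes, *Ehmt1* made up 7.07% in WT and 13.0% ± 1.84 (SD, n = 3) in *Thop1*-KO.

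The SUV39 genes did not pass. *Suv39h1* was at 43.7 CPM in WT and at 47.8, 54.2 and 49.3 in #1, #2 and #3, a log2 fold change of 0.21 ± 0.26 (SE, adjusted p = 0.601, edgeR), and its direction turned to -0.10 when the libraries were corrected for gene length. *Suv39h2* was at 18.6 CPM in WT and at 10.7, 15.7 and 10.6 in the subclones, with the widest relative spread of the 10 genes, a coefficient of variation of 23.5% over the subclones. Its log2 fold change was -0.59 ± 0.37 (SE, adjusted p = 0.290, edgeR). The 95% intervals were -0.41 to 0.83 for *Suv39h1* and -1.46 to 0.28 for *Suv39h2*. *Suv39h1* made up 75.6% of the summed FPKM of both genes in WT and 84.5% ± 2.16 (SD, n = 3) in *Thop1*-KO.

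The genes of the SETDB1 cofactors did not pass either. *Trim28* was at 4706 CPM in WT and at 4006, 3835 and 4000 in the subclones, the steadiest of the 10 genes with a coefficient of variation of 2.46% over the subclones. WT lay above all 3, and the log2 fold change came to -0.25 (standard error 0.17, 95% interval -0.66 to 0.16, adjusted p = 0.331, edgeR). *Atf7ip* was at 36.8 CPM in WT and at 29.3, 27.0 and 27.0 in the subclones, a log2 fold change of -0.41 (standard error 0.27, 95% interval -1.04 to 0.23, adjusted p = 0.318, edgeR).

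The HP1 genes went in opposite directions. *Cbx1* (ENSRNOG00000008689, plus strand of chromosome 10, 84669914 to 84675741) was at 22.9 CPM in WT and at 63.7, 70.0 and 61.6 in #1, #2 and #3. All 3 subclones lay above WT, and the log2 fold change was 1.50 (standard error 0.28, 95% interval 0.84 to 2.17, adjusted p = 0.0219, edgeR), a fold of 2.84. *Cbx5* (ENSRNOG00000036841, minus strand of chromosome 7, 144819420 to 144837583) was at 32.4 CPM in WT and at 10.6, 13.0 and 14.7 in the subclones. All 3 subclones lay below WT, and the log2 fold change was -1.34 (standard error 0.32, 95% interval -2.09 to -0.59, adjusted p = 0.0386, edgeR). *Cbx3* was at 134 CPM in WT and at 60.9, 78.7 and 68.2 in the subclones. Its subclones also lay below WT, and its log2 fold change of -0.95 (standard error 0.25, 95% interval -1.54 to -0.36) lay next to the threshold (adjusted p = 0.0506 in edgeR and 0.0286 in DESeq2).

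**Figure D2:**
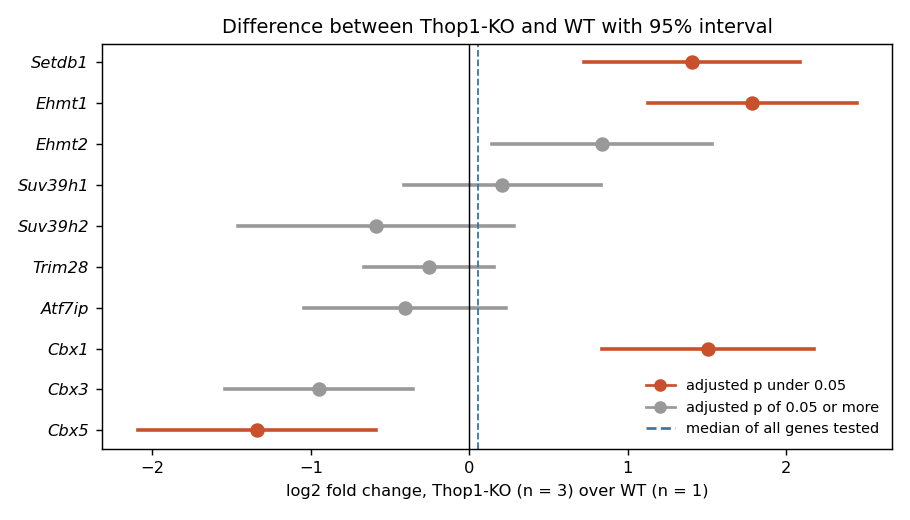
Log2 fold change of *Thop1*-KO (n = 3) over WT (n = 1) for the 10 genes, with lines for the 95% interval and colour for genes with an adjusted p-value under 0.05. *Setdb1*, *Ehmt1* and *Cbx1* lie to the right of the dashed median of all genes tested and *Cbx5* to the left. Of the genes not called, the intervals of *Cbx3* at -0.95 and *Ehmt2* at 0.84 also leave out 0.

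Within the HP1 genes the counts of *Cbx1* per count of *Cbx3* were 0.171 in WT and 1.05, 0.889 and 0.903 in #1, #2 and #3. *Cbx1* made up 29.4% of the summed FPKM of the 3 genes in WT and 70.7% ± 2.03 (SD, n = 3) in *Thop1*-KO. The share of *Cbx3* was 54.9% in WT and 24.0% ± 1.47 (SD, n = 3), and that of *Cbx5* was 15.7% and 5.27% ± 0.87 (SD, n = 3). Without the division by length, *Cbx1* made up 12.1% of the counts in WT and 44.3% ± 2.41 (SD, n = 3) in *Thop1*-KO. *Cbx3* made up 70.8% and 47.0% ± 1.82 (SD, n = 3), so by counts it stayed the largest on the mean, though not in #1. The shares themselves thus depend on the listed lengths, and the WT share lay outside the subclones on both scales for all 3 genes. The summed CPM of the 3 genes was 189 in WT and 135, 162 and 145 in the subclones. The shares are given as values and were not tested.

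**Figure D3:**
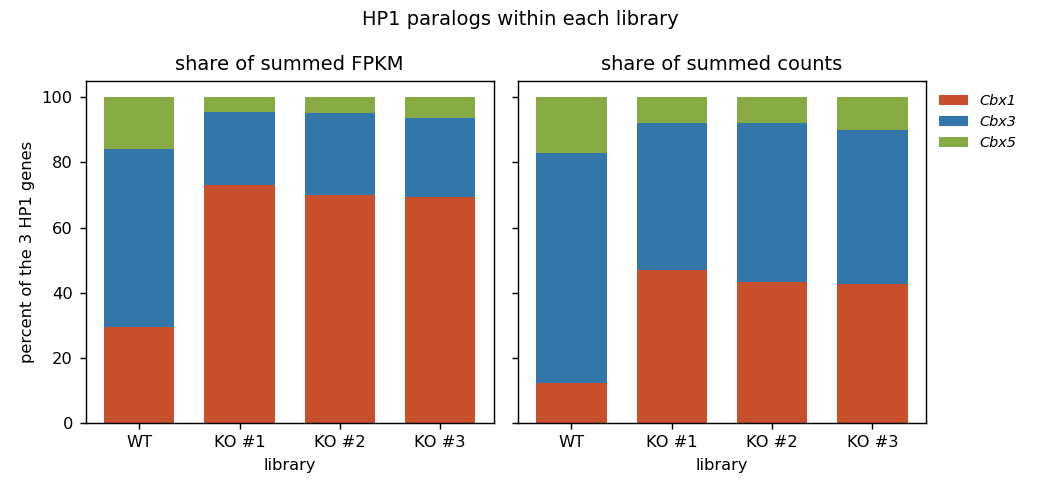
Percent of the summed FPKM (left) and of the summed counts (right) of *Cbx1*, *Cbx3* and *Cbx5* in each library. *Cbx1* takes 29.4% of the FPKM in WT and about 70.7% in the subclones. *Cbx3* is the most abundant of the 3 in WT on both scales, and by counts also in #2 and #3.

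The 4 calls were followed through other ways of processing the same counts. With subclone #3 left out, none of the 10 genes was called, and the adjusted p-values from edgeR were 0.125 for *Setdb1*, 0.0705 for *Ehmt1*, 0.0986 for *Cbx1* and 0.134 for *Cbx5*. The test then called 418 of all genes, against 2072 with all libraries. With #2 left out it called 5572 genes and 6 of the 10, *Ehmt2* (adjusted p = 0.00276, edgeR) and *Cbx3* (adjusted p = 0.00275, edgeR) being the added ones. With #1 left out *Cbx5* lost its call (adjusted p = 0.0590, edgeR). The directions of the 4 called genes and of *Cbx3* held in every alternative run. Every run used the same WT library, which lay outside all subclones for these genes, so this was not an independent check. *Setdb1* also lost its call after the correction for gene length, at a log2 fold change of 1.04 (adjusted p = 0.0690, edgeR). That correction moved the median of all genes by -0.14, and some of the 10 genes by more. The log2 fold change went from 1.78 to 1.38 for *Ehmt1* and from 0.84 to 0.50 for *Ehmt2*. Only *Cbx1*, the shortest at 558 bases, moved up, from 1.50 to 1.92, and the other members moved down. The cause of this length trend was not tested.

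**Figure D4:**
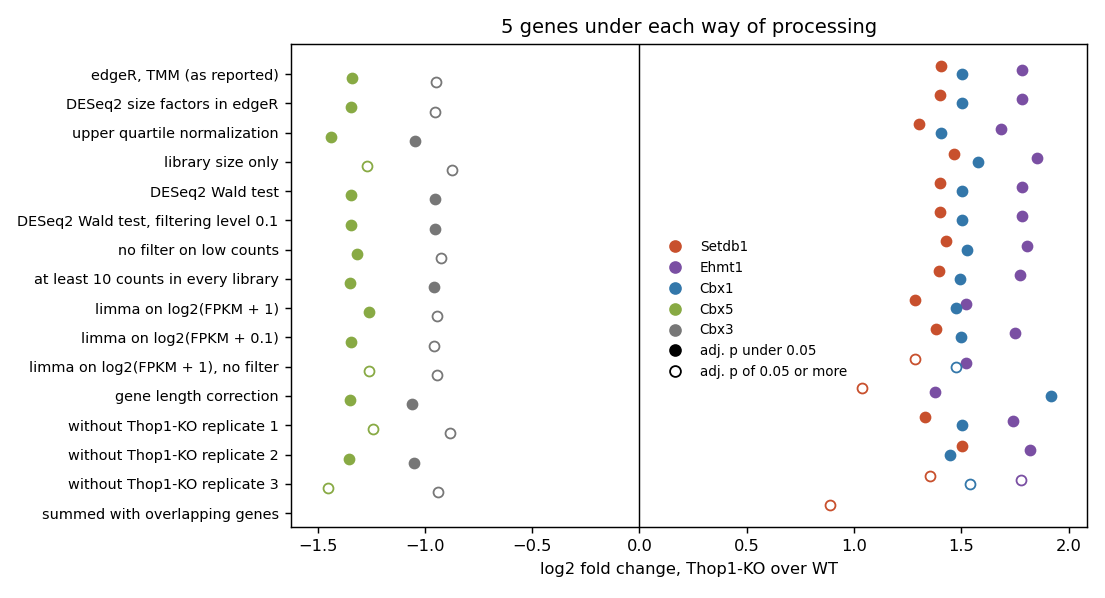
Log2 fold change of 5 genes under each alternative, filled where the adjusted p-value was under 0.05 and open where it was not. The positions stay on 1 side of 0 throughout, with the same WT library in every run. *Setdb1* lies lowest, at 0.89, when summed with *Cers2*, a setting drawn for *Setdb1* only.

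Other genes that act with the 10 were taken from 5 lists. Of 38 such genes tested, 6 were called (15.8%, against 13.8% of all genes tested), 4 higher and 2 lower, and the median log2 fold change was 0.31. Among other H3K9 methyltransferase genes, 0 of 4 tested were called by edgeR at an adjusted p-value under 0.05. The smallest p-values there belonged to *Prdm2*, with a log2 fold change of 0.58 (adjusted p = 0.142, edgeR), and *Setdb2*, with -1.06 (adjusted p = 0.475, edgeR).

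Among the G9a and GLP partners, 1 of 4 was called. *Cdyl*, a chromodomain protein that binds G9a, was at 1.55 CPM in WT and at 17.5, 14.5 and 18.1 in the subclones, a log2 fold change of 3.43 ± 0.44 (SE, adjusted p = 0.00889, edgeR). Every subclone of *Cdyl* lay far above WT. Among the genes of the HUSH complex and other SETDB1 partners, 1 of 9 was called. *Mphosph8*, the HUSH subunit that binds methylated H3K9, had 100 counts in WT and 13, 4 and 5 in the subclones, a log2 fold change of -3.97 ± 0.70 (SE, adjusted p = 0.0191, edgeR). It does not reach 10 counts in every library and was not tested under that filter.

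Of the genes that bind HP1 or act in heterochromatin, 2 of 11 were called, both higher. *Uhrf1*, which binds H3K9 methylation and recruits the maintenance DNA methyltransferase, was at 331 CPM in WT and at 917, 852 and 837 in the subclones, a log2 fold change of 1.39 (adjusted p = 0.0148, edgeR). *Trim33*, a relative of TRIM28, had 11 counts in WT and 78, 92 and 118 in the subclones, a log2 fold change of 2.87 (adjusted p = 0.0254, edgeR). Both had their 3 subclones above WT. Of the H3K9 demethylase genes, 2 of 10 were called. *Kdm3b* was at 54.6 CPM in WT and at 227, 142 and 204 in the subclones, a log2 fold change of 1.81 (adjusted p = 0.0248, edgeR). *Kdm1a* (LSD1) was at 204 CPM in WT and at 99.5, 118 and 111 in the subclones, a log2 fold change of -0.90 (adjusted p = 0.0462, edgeR). *Kdm3b* was thus higher and *Kdm1a* lower in every subclone than in WT.

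Germline and trophectoderm genes, classes with members silenced by H3K9 methylation in ESCs, were looked at last. Some were expressed here, such as *Tfap2c* at 140 CPM and *Krt18* at 68.6 CPM in WT, and H3K9 methylation itself was not measured. Of the germline genes, 2 of 9 tested were called, both lower, where 13.8% of all genes tested were called and 5.17% were called lower. *Stk31* had 128 counts in WT and 30, 15 and 39 in the subclones, a log2 fold change of -2.42 (adjusted p = 0.0360, edgeR). *Dazl*, an RNA-binding protein of germ cells, had 47 counts in WT and 1, 8 and 4 in the subclones, a log2 fold change of -3.64 (adjusted p = 0.0433, edgeR). In both genes all 3 subclones lay below WT. The median log2 fold change of the 9 was -0.62. Of the trophectoderm genes, 0 of 8 tested were called by edgeR at an adjusted p-value under 0.05, and WT lay inside the range of the subclones for 6 of them and outside for 2, where it lay outside for 75.7% of all genes tested. *Tfap2c* and *Krt18* had the smallest p-values there, with log2 fold changes of 1.10 (adjusted p = 0.170, edgeR) and 0.70 (adjusted p = 0.172, edgeR).

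With #3 left out, *Cdyl* was the only one of the called genes *Cdyl*, *Mphosph8*, *Uhrf1*, *Trim33*, *Kdm3b*, *Kdm1a*, *Stk31* and *Dazl* to keep its call, and the adjusted p-values of the others from edgeR ran from 0.0611 (*Mphosph8*) to 0.199 (*Kdm1a*). The test then called 2.78% of all genes. With #1 left out *Kdm1a* lost its call (adjusted p = 0.0785, edgeR). With #2 left out, 5 of 11 HP1-binding genes and 3 of 8 trophectoderm genes were called, where 37.1% of all genes were. Among the other alternatives, limma on log2(FPKM + 1) with no filter called none of the 8. *Kdm1a* also lost its call with library size only (adjusted p = 0.0637, edgeR) and under limma on log2(FPKM + 1) and log2(FPKM + 0.1) (adjusted p = 0.0571 and 0.0595). *Kdm3b* lost its call after the correction for gene length (adjusted p = 0.0600, edgeR), and *Stk31* and *Dazl* lost theirs under limma on log2(FPKM + 0.1) (adjusted p = 0.0697 and 0.0545).

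**Figure D5:**
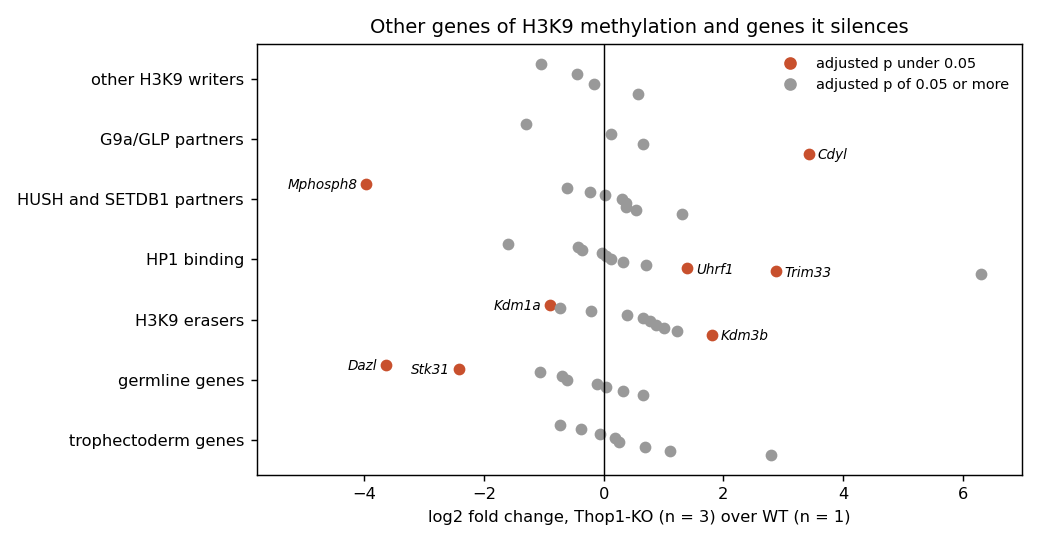
Log2 fold change of *Thop1*-KO over WT for each tested gene of 5 lists of H3K9 methylation genes and 2 lists of germline and trophectoderm genes. Genes with an adjusted p-value under 0.05 are coloured and named. The called genes lie on both sides of 0, and the grey point far to the right in the HP1 row is *Hells*, with 0 counts in WT and 18, 4 and 8 in the subclones, whose fitted value depends on the prior count.

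Several values moved with the groups. *Thop1* itself was at 370 CPM in WT and at 110, 92.5 and 149 in #1, #2 and #3. The ESC marker *Pou5f1* was at 4794 CPM in WT and at 4842, 3889 and 4776 in the subclones. Of 10 ESC markers tested 2 were called higher, *Esrrb* (log2 fold change 4.30) and *Tfcp2l1* (2.89), and 1 lower, *Utf1* (-1.51). Over all genes tested 8.62% were called higher and 5.17% lower, and WT lay below all 3 subclones for 38.1% and above them for 37.6%. Fibroblast markers, which feeder cells could bring, summed to 1896 CPM in WT and 4180 to 4534 in the subclones, most of it *Fn1*, which was called higher (log2 fold change 1.22), and *Thy1*, *Lum* and *Dcn* were at 0 in all 4 libraries. Of 6 fibroblast markers tested only *Fn1* was called, and WT lay below the subclones for all 6. Primitive endoderm markers summed to 851 CPM in WT and 1222 to 1784 in the subclones, mostly *Lama1* (log2 fold change 0.78, not called), and 0 of 6 were called by edgeR. WT lay below the subclones for 5 of these 6 and above them for 1, *Gata4*, which had 17 counts in WT and 3, 0 and 3 in the subclones, whereas *Dab2* had 0 counts in WT and 8, 22 and 9. The part of these cells or states in the results above was not tested, and in bulk RNA a change in the number of cells of a type and a change of RNA per cell cannot be told apart. The counts on genes summed to between 15405499 and 17936544 per library.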

How the data were processed

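The authors made the libraries from poly(A) RNA and removed noise and adaptors with the FASTX toolkit. HISAT2 2.0.5 and featureCounts 1.5.0-p3 stand in the submitters' processing notes. The genome build is not given in the sources used here. Raw counts per gene and FPKM values were deposited by the authors. Each deposited FPKM value is the gene's count over its length and over 1 scaling factor of the library.

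Counts were compared with edgeR 4.0.16 in R 4.3.3 (filterByExpr with a minimum count of 10, TMM, quasi-likelihood test, Benjamini-Hochberg, threshold 0.05). The code of the test was run on simulated counts with set fold changes. Their spread was estimated from these same libraries, and no effect of a culture or library was put in. The simulation thus cannot show how the test behaves where the only WT library differs for such a reason. Alternatives were other scalings, DESeq2 1.42.0, other filters, a loess correction for gene length (span 0.3), limma 3.58.1 with a mean trend on log2(FPKM + 0.1) or log2(FPKM + 1), sums with overlapping genes, and leaving out each subclone. DESeq2's independent filtering was first run at its default level of 0.1. It was reset to 0.05, the threshold used, after the results had been seen and differed from an earlier analysis of these data. Both versions are kept.

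The members and the gene lists were chosen with earlier results of these data known. Named genes are the members, genes overlapping them, their copies, *Thop1*, the called genes of each list or, with none called, the 2 with the smallest p-values, and the 3 genes closest to *Setdb1*. *Pou5f1*, *Hells*, *Gata4*, the other markers given at 0 and the neighbouring loci were named besides, after their values were seen. Promoters come from RefSeq (GRCr8), and all 10 members matched. Coordinates of genes are those of the deposited annotation. Every pair of libraries differed by more than sampling noise (chi-square per degree of freedom 22.1 to 183).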

Additional observations from a re-analysis of the deposited data

How the results depend on the processing

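The level of DESeq2's independent filtering changed no call among the 10 genes. At the level of 0.05 DESeq2 called 3006 of 13973 genes, and at its default of 0.1, the setting first run, it called 2963 of 14713 (20.1%), with 5 of the 10 genes called at either level and an adjusted p for *Cbx3* of 0.0286 or 0.0301. Leaving out each subclone moved the number of all genes called between 418 and 5572, and that of the 10 genes between 0 and 6; the lowest values came without #3 and the highest without #2. With limma on log2(FPKM + 1) and no filter on low values 823 genes were called and 1 of the 10, *Ehmt1*. *Cbx5* also lost its call with library size only (adjusted p = 0.0510, edgeR). *Suv39h1* turned to -0.10 under the correction for gene length. By counts in place of FPKM, the share of *Cbx1* was 12.1% in WT and 44.3% in *Thop1*-KO, that of *Ehmt1* 10.6% and 18.9%, and that of *Suv39h1* 70.2% and 80.5%. Of their alternatives, *Ehmt1* kept its call in 13 of 14, *Cbx1* in 12 of 14, *Setdb1* in 11 of 15 and *Cbx5* in 10 of 14, while *Cbx3* gained one in 6 of 14 and *Ehmt2* in 1 of 14. The 15 of *Setdb1* include the sum with *Cers2*, which lowers its fold change by design. The causes were not tested. No paired analysis was possible because WT has 1 library, so the groups share fewer than 2 replicate numbers.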

Other observations

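The profile of *Setdb1* over the 4 libraries was most like those of *Txndc15*, *Sipa1l3* and *Lman1*, by the Euclidean distance of log2 CPM centred on each gene's mean. These distances were 0.036, 0.040 and 0.060. They are the smallest over all tested genes with a symbol, members and *Cers2* left out. With so many genes and only 4 values each, small distances follow from the search, and shared regulation was not tested. *Txndc15* was at 13.5 CPM in WT and at 39.2, 30.7 and 37.5 in #1, #2 and #3. Among the members the closest were *Ehmt1* at 0.38, *Cbx1* at 0.40 and *Ehmt2* at 0.52.

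The genes next to the HP1 genes were also read. *Nfe2l1*, a transcription factor gene 6719 bases above the end of *Cbx1* and on the opposite strand, was at 22.9 CPM in WT and at 256, 234 and 269 in the subclones, a log2 fold change of 3.46 (adjusted p = 0.00678, edgeR). A locus that the authors added lies 2030 bases below the start coordinate of *Cbx5*, on the same strand. As *Cbx5* is on the minus strand, this is past its 3′ end, and whether the locus belongs to the same transcript was not tested. It was at 45.3 CPM in WT and at 13.0, 10.4 and 16.5 in the subclones, a log2 fold change of -1.77 (adjusted p = 0.0219, edgeR), beside -1.34 for *Cbx5*. *Hnrnpa2b1*, 3187 bases below the start of *Cbx3* and on the opposite strand, had a log2 fold change of 0.00 (adjusted p = 0.995, edgeR), beside -0.95 for *Cbx3*. On the other side of *Cbx3*, 17560 bases above its end and on its strand, another locus that the authors added was at 135 CPM in WT and at 1584, 1132 and 1740 in the subclones, a log2 fold change of 3.47 (adjusted p = 0.00678, edgeR), opposite in direction to *Cbx3*. The remaining neighbours of the HP1 genes were not called. *Snx11*, beside *Cbx1*, had a log2 fold change of 0.51 (adjusted p = 0.324, edgeR), and *Hnrnpa1*, beside *Cbx5*, had -0.68 (adjusted p = 0.0711, edgeR). Neighbours of the other members, apart from *Cers2*, are not given. These genes were chosen after the members' values were seen.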
